A study of Mus musculus with 8 samples.

Results

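The genes described here are 10 CC chemokines of mouse macrophages, Ccl2, Ccl3, Ccl4, Ccl5, Ccl6, Ccl7, Ccl9, Ccl17, Ccl22 and Ccl24. They were taken by name, with every probe set that the array annotation gives to 1 of these symbols, which yielded 12 of the 45037 probe sets tested. Ccl6 and Ccl9 have 2 probe sets each and the other members 1. All 10 symbols were found among the 18193 genes named on the array.

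CC chemokines are small secreted proteins, named for a pair of adjacent cysteines, that draw leukocytes along a gradient by binding G protein-coupled receptors. Several bind the same receptor, and most receptors bind several of them. Macrophages are a major source of those that call monocytes, T cells and eosinophils into tissue. Which ones they make is known to depend on the stimulus, with NF-kappaB and interferon signalling driving some genes and IL-4 signalling through STAT6 driving others.

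Bone marrow cells of wild-type C57BL/6J mice were grown into macrophages (BMDM) with L929 cell supernatant as the source of macrophage colony stimulating factor, and on day 7 were moved to medium without it. M1 macrophages then received LPS (100 ng/ml) with IFN-γ (20 ng/ml), M2 macrophages received IL-4 (20 ng/ml) and M0 macrophages received media alone, and RNA was taken 24 hours later. The RNA of each culture was hybridized to its own Affymetrix mouse expression array, giving 3 arrays of M1, 2 of M2 and 3 of M0 macrophages. The labels trace replicate arrays to different mice, and the methods give independent mice together with in vitro replicates without saying which array is which, so every n is a number of arrays and p-values measure the spread between arrays, which may be partly technical. No M2 comparison had more than 2 M2 arrays. Levels are RMA intensities on a linear scale, called units, and a log2 fold change is the difference of mean log2 intensities fitted by limma. Genes are said to rise or fall only where the limma p, adjusted by Benjamini and Hochberg over all 45037 probe sets, was under 0.05, and a gene is represented by its brightest probe set unless another is named.

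Array medians lay between 38.9 and 40.4 units, and across probe sets log2 values correlated at 0.994 to 0.997 between arrays of 1 condition and at 0.965 to 0.983 between conditions. All 8 macrophage markers looked up were above the array median on every array. Their summed intensity was 53163 to 56861 units in M2 macrophages, against 78572 to 81228 units in M0 macrophages, and was 75999 to 77619 units in M1 macrophages. In M2 macrophages 5 of these 8 markers fell, where 6.43% of all named genes fell. Fcgr1 fell by 3.28 on the log2 scale (limma adjusted p = 1e-07) and Cd14 by 1.66 (limma adjusted p = 4.11e-06). Adgre1 fell by 1.08 (limma adjusted p = 2.29e-05), Mertk by 1.08 (limma adjusted p = 0.0003) and Lyz2 by less than 2-fold. Csf1r (log2 fold change -0.078, limma adjusted p = 0.743), Itgam (0.16, limma adjusted p = 0.752) and Cd68 (-0.29, limma adjusted p = 0.118) did not pass. Markers of neutrophils and of mast cells and basophils summed to at most 313 and 193 units on any array. The neutrophil gene Camp was higher in M1 than in M2 macrophages (log2 difference 1.05, limma adjusted p = 0.000139). It had only 36.3, 32.9 and 36.6 units in M1 and 16.1 and 18.0 units in M2 macrophages, below the array median on every array. The other 6 measured neutrophil markers did not pass between M1 and M2 macrophages. In such bulk RNA, fewer cells of a type and less RNA per cell cannot be told apart.

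All 10 chemokines were above the array median on every M1 and M2 array, and 8 of them were on every M0 array. The exceptions were Ccl17 and Ccl22, which exceeded it on 2 of the 3 M0 arrays. In M1 macrophages 4 members rose relative to M0 macrophages (Ccl2, Ccl5, Ccl17 and Ccl22) and 2 fell (Ccl4 and Ccl6), where 13.7% of all named genes rose and 11.5% fell. In M2 macrophages 5 members rose (Ccl2, Ccl7, Ccl17, Ccl22 and Ccl24) and 2 fell (Ccl3 and Ccl5), where 8.03% of all named genes rose and 6.43% fell. The 2 comparisons share their M0 arrays. Directly compared, M1 macrophages were higher than M2 macrophages in 2 members (Ccl3 and Ccl5; 11.5% of all named genes) and lower in 5 (Ccl6, Ccl7, Ccl17, Ccl22 and Ccl24; 12.3% of all named genes). Ccl9 passed the test in none of the 3 comparisons, and all 3 together made 20 calls out of 30.

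The sizes of the changes were unevenly spread over the members. The median absolute log2 fold change of the 10 members was 0.70 in M1 over M0, against 0.16 for all named genes, and 0.85 in M2 over M0, against 0.15 for all named genes. Ranked by signed change in M2 over M0 macrophages, Ccl24, Ccl22 and Ccl17 stood in places 13, 14 and 16 of 18193 genes and Ccl7 in place 99. In M1 over M0 macrophages the members nearest the top were Ccl22, in place 70, and Ccl2, in place 264.

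**Figure D1:**
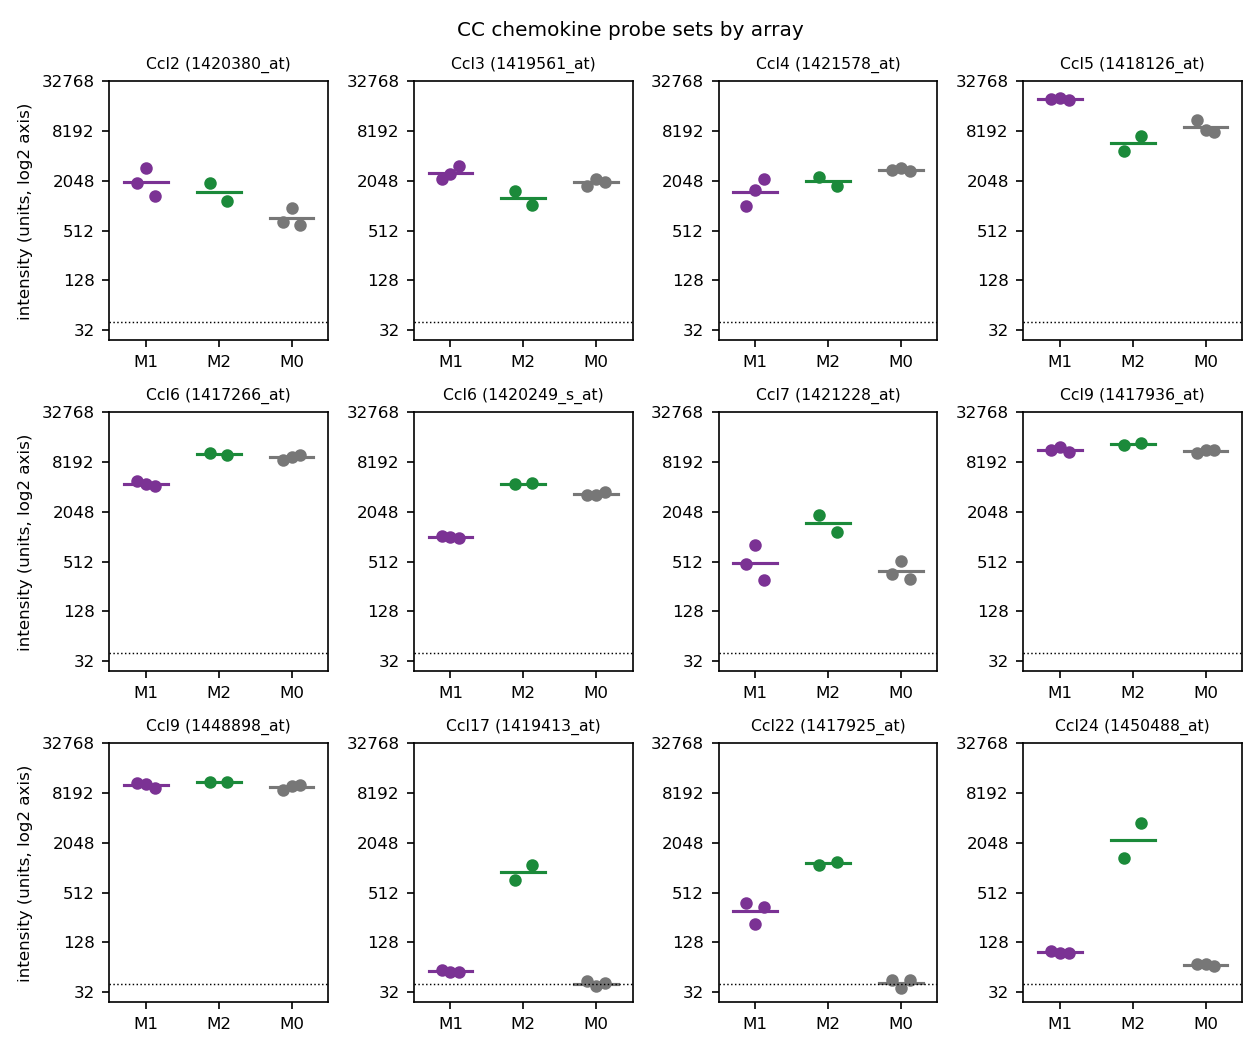
Intensity (units, log2 axis) of the 12 CC chemokine probe sets on each array, with M1 in purple, M2 in green and M0 in grey. Each point is 1 array, the bar is the mean of log2 values, and the dotted line at 40 units marks the usual array median. Ccl17 and Ccl22 lie near that line in M0 macrophages and far above it in M2 macrophages, and Ccl9 lies at about the same height in all 3 conditions.

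**Figure D2:**
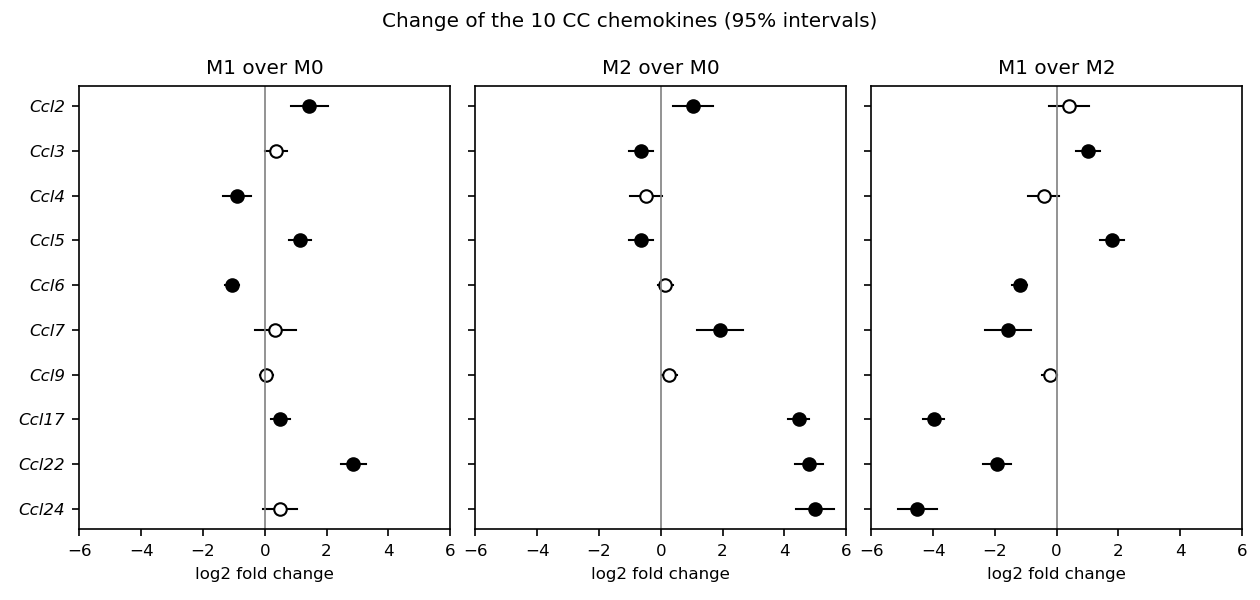
Log2 fold change of each member (brightest probe set) in M1 over M0, M2 over M0 and M1 over M2 macrophages, with 95% intervals from limma. Filled points passed the test after adjustment and open points did not. The widest gain is that of Ccl24 in M2 macrophages, at 4.99, and Ccl9 is open in all 3 panels.

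IL-4 raised 3 chemokines that attract cells of type 2 immunity from a dim level. Ccl17 and Ccl22 are the ligands of CCR4, the receptor of Th2 cells, regulatory T cells and skin-homing T cells, and Ccl24 is an eotaxin that calls eosinophils through CCR3. Ccl17 rose 22.2-fold, Ccl22 27.7-fold and Ccl24 31.9-fold in M2 over M0 macrophages. Ccl22 also rose in M1 macrophages, by 7.27-fold.

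Ccl17 had 728 and 1113 units in M2 macrophages, against 43.2, 37.7 and 40.9 units in M0 macrophages. In M1 macrophages it had 59.6, 56.0 and 56.5 units. Both M2 arrays were thus far above all others, and the 3 M1 arrays lay close together just above the 3 M0 arrays, without overlap. Its log2 fold change was 4.47 (SE 0.16, limma adjusted p = 6.38e-09) in M2 over M0, 0.50 (SE 0.14, limma adjusted p = 0.0229) in M1 over M0 and -3.97 (SE 0.16, limma adjusted p = 5.03e-09) in M1 over M2. The small rise in M1 macrophages was lost when any 1 of 4 arrays was left out, with log2 fold changes of 0.45 to 0.51 and limma adjusted p-values of 0.0976 without M0 replicate 2, 0.0564 without M0 replicate 3, 0.0742 without M1 replicate 1 and 0.0535 without M1 replicate 3.

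Ccl22 had 1121 and 1194 units in M2 macrophages and 381, 215 and 340.3 units in M1 macrophages, against 45.0, 35.4 and 45.5 units in M0 macrophages. The 3 conditions did not overlap, with M1 arrays between the others. Its log2 fold change was 4.79 (SE 0.21, limma adjusted p = 2.66e-08) in M2 over M0, 2.86 (SE 0.18, limma adjusted p = 4.03e-07) in M1 over M0 and -1.93 (SE 0.21, limma adjusted p = 2.41e-05) in M1 over M2. Ccl17 and Ccl22 thus shared their place in M2 macrophages but not in M1 macrophages, where Ccl17 stayed dim and Ccl22 did not.

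Ccl24 had 1345 and 3585 units in M2 macrophages, against 70.1, 69.6 and 66.9 units in M0 macrophages. In M1 macrophages it had 99.3, 95.5 and 95.1 units. The M2 arrays were the highest and, on the log2 scale, farther apart than those of any other member, at 2465 ± 1584 units (SD, n = 2), and the M1 arrays lay above the M0 arrays without overlap. On the log2 scale, the change was 4.99 (SE 0.28, limma adjusted p = 2.87e-07) in M2 over M0, 5.70 without M2 replicate 1 and 4.29 without M2 replicate 2. In M1 over M2 it was -4.51 (SE 0.28, limma adjusted p = 2.33e-07), with values between -5.21 and -3.80 when either M2 array was left out. For M1 over M0 it was 0.49 (95% interval -0.062 to 1.04, limma adjusted p = 0.232), and the test was passed at the same size once either M2 array was left out (limma adjusted p = 0.00245).

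The folds of Ccl17 and Ccl22 start from M0 levels near the array median, and that of Ccl24 from a level somewhat above it. RMA intensities this low include signal that is not from the target, and no detection call was used here, so the folds may understate the change in RNA. Markers of dendritic cells, another source of Ccl17 and Ccl22, were looked up beside them. Of 8 markers listed, 7 were measured, and 3 of these were above the array median on both M2 arrays, against 4 on all M0 arrays. Their summed intensity was 8331 to 9899.8 units in M2 macrophages, against 1085 to 1201 units in M0 macrophages. Nearly all of the gain was in Itgax, the integrin CD11c, which had 8095 and 9624 units in M2 macrophages, against 840.5, 902.4 and 977 units in M0 macrophages (log2 fold change 3.29, limma adjusted p = 4.04e-07). Flt3, Zbtb46, Xcr1, Siglech, Ccr7 and Cd209a did not pass the test in M2 macrophages at their brightest probe sets, but 2 of the 3 dimmer probe sets of Zbtb46 rose. They had 30.5 and 34.3 units in M2 macrophages, against 15.2, 16.6 and 16.3 units in M0 macrophages (log2 fold change 1.02, limma adjusted p = 0.000244), and 23.7 and 22.5 units in M2 macrophages, against 7.33, 8.3 and 8.14 units in M0 macrophages (1.54, limma adjusted p = 3.44e-06). In M1 macrophages the 7 measured markers summed to 960 to 1642 units. Only Ccr7 of them rose in M1 over M0 (log2 fold change 3.95, limma adjusted p = 3.09e-06). The part of these markers in the chemokine results was not tested.

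In the RefSeq annotation of the mouse genome GRCm38.p6, Ccl22 and Ccl17 lie on chromosome 8 on either side of Cx3cl1, with no other protein-coding gene between, whereas Ccl24 lies on chromosome 5 next to Ccl26. The RefSeq promoter windows, 250 bases before to 50 bases after the annotated start, are shown for Ccl17 and Ccl22 because IL-4 raised both. Both are on the plus strand of GRCm38.p6, Ccl17 at chr8:94810203-94810502 and Ccl22 at chr8:94745434-94745733. Capitals mark a match to the STAT6 site TTCNNNNGAA, at -154 to -145 from the Ccl17 start, and to the GAS site TTCNNNGAA, at -99 to -91.
Ccl17: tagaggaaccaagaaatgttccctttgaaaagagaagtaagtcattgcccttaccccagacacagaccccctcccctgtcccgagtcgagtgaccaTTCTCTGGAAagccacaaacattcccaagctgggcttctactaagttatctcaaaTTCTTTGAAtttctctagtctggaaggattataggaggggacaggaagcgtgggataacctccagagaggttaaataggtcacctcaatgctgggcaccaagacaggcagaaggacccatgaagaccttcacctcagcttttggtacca
Ccl22: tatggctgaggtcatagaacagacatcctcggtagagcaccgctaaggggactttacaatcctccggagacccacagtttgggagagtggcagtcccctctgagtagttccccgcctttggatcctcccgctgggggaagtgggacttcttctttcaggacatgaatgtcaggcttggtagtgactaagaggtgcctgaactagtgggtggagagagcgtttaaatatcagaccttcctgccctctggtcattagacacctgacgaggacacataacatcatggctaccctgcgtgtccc

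Both strands of each window were searched for 6 motifs, the NF-kappaB consensus, the STAT6 site, the GAS site, the ISRE core GAAANNGAAA, the AP-1 site TGANTCA and the TATA box TATAAA. Of 32851 RefSeq windows, 6.95% hold the STAT6 site and 8.3% the GAS site, so a match as in Ccl17 is not rare. The shares for the other motifs were 4.51% for NF-kappaB, 3.44% for ISRE, 7.81% for AP-1 and 13.6% for TATA. The Ccl22 window held none of the 6. Windows were found for 5 of the 10 members, and apart from Ccl17 only that of Ccl9 held a match, namely an NF-kappaB match at -35 to -26 from the start, read on the opposite strand, an AP-1 match at -53 to -47, and 3 TATA matches of which 2 overlap. The Ccl3 and Ccl6 windows held none. A match is a description of letters and not of a bound factor.

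The CCR2 ligands Ccl2 and Ccl7, which release monocytes from bone marrow and draw them into tissue, shared a rise in M2 macrophages. Ccl2 rose in M1 macrophages too, where Ccl7 did not pass the test. Only Ccl7 passed between M1 and M2 macrophages. The level of both varied between arrays of a condition more than that of almost any other named gene.

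Ccl2 had 1916, 2957 and 1354 units in M1 macrophages and 1920.3 and 1162 units in M2 macrophages, against 652.4, 968 and 600.1 units in M0 macrophages. Every M1 and M2 array was above every M0 array, and the M1 and M2 arrays overlapped. The log2 fold change was 1.45 (SE 0.27, limma adjusted p = 0.00191) in M1 over M0 and 1.05 (SE 0.30, limma adjusted p = 0.042) in M2 over M0. Between M1 and M2 macrophages the log2 difference was 0.40 (95% interval -0.26 to 1.06, limma adjusted p = 0.448). The call for M2 macrophages did not survive the loss of M2 replicate 1 (log2 fold change 0.68, limma adjusted p = 0.329), M0 replicate 1 (0.97, limma adjusted p = 0.111), M0 replicate 3 (0.91, limma adjusted p = 0.118) or M1 replicate 1, which changes only the shared spread (limma adjusted p = 0.0597). Fibroblasts also make Ccl2, and 2 of 8 fibroblast markers rose in M1 macrophages, where 13.7% of all named genes rose. Their summed intensity was 235 to 379 units in M1 and 194 to 299 units in M2 macrophages, against 178 to 205 units in M0 macrophages, with Dcn at 59.2, 60.9 and 68.4 units in M1 macrophages, against 27.2, 28.5 and 27.1 units in M0 macrophages (log2 fold change 1.18, limma adjusted p = 0.000171). Their part in the Ccl2 values was not tested.

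Ccl7 had 1896 and 1164 units in M2 macrophages, against 358.4, 527.3 and 312.9 units in M0 macrophages. In M1 macrophages it had 475.8, 818.9 and 310.5 units. Both M2 arrays were above all others, and the M1 arrays spanned the whole range of the M0 arrays. Its log2 fold change was 1.93 (SE 0.34, limma adjusted p = 0.00262) in M2 over M0, and 1.58 with a limma adjusted p of 0.0521 without M2 replicate 1. In M1 over M2 it was -1.59 (SE 0.34, limma adjusted p = 0.00538), and -1.23 with a limma adjusted p of 0.0929 without the same array. For M1 over M0 it was 0.34 (95% interval -0.32 to 1.01, limma adjusted p = 0.534), and it turned to -0.020 without M1 replicate 2.

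Within each condition, Ccl2 and Ccl7 were high and low on the same arrays. Among M1 arrays replicate 2 was the highest and replicate 3 the lowest for both genes, as among M0 arrays, and among M2 arrays replicate 1 was the higher for both. The within-condition SD of log2 intensity was 0.55 for Ccl7 and 0.48 for Ccl2, larger than for 99.8% and 99.7% of named genes, whose median was 0.13. The log2 intensity of Ccl7 minus that of Ccl2 on the same array, in contrast, had a within-condition SD of 0.0904. The size of this difference carries no meaning, since the probe sets differ in brightness, but its shift between arrays does not depend on that.

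By array, Ccl7 minus Ccl2 was -2.01, -1.85 and -2.12 in M1 macrophages and -0.0185 and 0.0028 in M2 macrophages, against -0.86, -0.88 and -0.94 in M0 macrophages. The 3 conditions were separate and the arrays of each lay close together. Relative to M0 macrophages, the difference was lower by 1.10 in M1 and higher by 0.89 in M2 macrophages, on the log2 scale. Of all 45 pairs of members this one had the smallest within-condition SD of the difference, closely followed by Ccl9 minus Ccl6 at 0.0915, 2 genes that are each steady. The other pairs that include Ccl2 had 0.45 or more, and the largest value of any pair was 0.84. Ccl2 and Ccl7 are next to each other on chromosome 11, but the pair was picked after its values were seen, so no test is given.

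**Figure D3:**
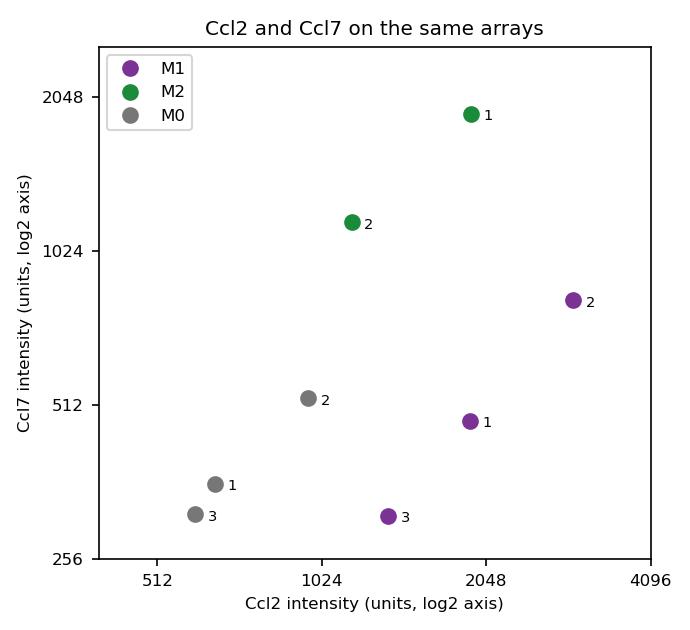
Intensity of Ccl7 against that of Ccl2 on the same array (units, both axes log2), with M1 in purple, M2 in green and M0 in grey and the replicate number beside each point. In each condition the array with more Ccl2 has more Ccl7, the M1 points lie to the right of the M0 points, and the M2 points lie at the top.

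Ccl3, Ccl4 and Ccl5 are inflammatory chemokines that attract T cells, NK cells and monocytes, and CCR1 is a receptor of Ccl3 and Ccl5. They moved in different directions in M1 macrophages, where Ccl5 rose and Ccl4 fell. In M2 macrophages none of the 3 rose, and Ccl3 and Ccl5 fell by less than 2-fold.

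Ccl5 had 20259.8, 20689 and 19662 units in M1 macrophages and 4746 and 7223 units in M2 macrophages, against 11239.9, 8519.9 and 8062 units in M0 macrophages. The M1 arrays were all above the M0 arrays and close together, and both M2 arrays were below every M0 array. On the log2 scale, the change was 1.14 (SE 0.16, limma adjusted p = 0.000233) in M1 over M0, 1.79 (SE 0.18, limma adjusted p = 1.37e-05) in M1 over M2 and -0.65 (SE 0.18, limma adjusted p = 0.0336) in M2 over M0. The fall in M2 macrophages did not pass once M2 replicate 1 was left out (log2 fold change -0.34, limma adjusted p = 0.315), nor without M0 replicate 1 (-0.50, limma adjusted p = 0.106) or M0 replicate 2 (-0.70, limma adjusted p = 0.0596). T cells and NK cells also make Ccl5. The 7 measured T cell markers summed to 212 to 251 units in M1 and 208 to 226 units in M2 macrophages, against 240.4 to 269 units in M0 macrophages, and 2 of the 7 were above the array median on all M1 arrays and 3 on both M2 arrays, against 2 on all M0 arrays. Cd5 rose in M1 macrophages (log2 fold change 0.65, limma adjusted p = 0.01). It was below the array median on every array, at 23.1, 17.1 and 26.8 units in M1 and 16.1, 13.7 and 12.3 units in M0 macrophages. Cd4 fell in M1 (-0.47, limma adjusted p = 0.0273) and M2 macrophages (-0.57, limma adjusted p = 0.0273). The other 5 measured T cell markers did not pass in M1 over M0. None of the 6 measured NK cell markers was above the array median on all arrays of any condition. The part of these markers in the Ccl5 values was not tested.

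Ccl3 had 2183, 2465 and 3096 units in M1 macrophages and 1535 and 1044 units in M2 macrophages, against 1801, 2169.9 and 2005 units in M0 macrophages. No 2 conditions overlapped, but the lowest M1 array was only just above the highest M0 array. Ccl3 was higher in M1 than in M2 macrophages by 1.01 on the log2 scale (SE 0.18, limma adjusted p = 0.00141). In M1 over M0 the log2 fold change was 0.36 (95% interval 0.013 to 0.71) and did not pass (limma adjusted p = 0.152). In M2 over M0 it was -0.65 (SE 0.18, limma adjusted p = 0.0337), and this call needed M2 replicate 2 (without it -0.37, limma adjusted p = 0.295), M0 replicate 2 (without it -0.59, limma adjusted p = 0.114) and M0 replicate 3 (without it -0.64, limma adjusted p = 0.0774).

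Ccl4 had 1009, 1571 and 2135 units in M1 macrophages and 2278 and 1787 units in M2 macrophages, against 2750.5, 2952 and 2688 units in M0 macrophages. Every stimulated array was below every M0 array. The log2 fold change was -0.90 (SE 0.21, limma adjusted p = 0.0088) in M1 over M0 and -0.47 (95% interval -0.99 to 0.046, limma adjusted p = 0.259) in M2 over M0. M1 and M2 arrays overlapped, at a log2 difference of -0.43 (limma adjusted p = 0.274), which became -0.68 with a limma adjusted p of 0.0324 without M1 replicate 3. Ccl3 and Ccl4 are neighbours on chromosome 11, as are Ccl2 and Ccl7. Ccl3 and Ccl4 shared their highest array in every condition, as did Ccl2 with Ccl7 and Ccl17 with Ccl24, 3 of the 45 pairs of members. With 2 or 3 arrays per condition, unrelated genes can share it too, and no share over all genes was computed. Nothing is therefore read from this count. The log2 difference of Ccl4 minus Ccl3 had a within-condition SD of 0.21, against 0.36 for Ccl4 and 0.25 for Ccl3. Besides this pair and Ccl7 with Ccl2, only Ccl17 with Ccl5 had a difference steadier than both of its members. The SD of that difference was 0.13, against 0.21 for Ccl17 and 0.25 for Ccl5, which lie on different chromosomes.

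Ccl6 and Ccl9 are chemokines of rodents, without a clear human counterpart, that act on CCR1. Macrophages, including unstimulated ones, are known to make both in quantity. Ccl6 fell in M1 macrophages, while Ccl9 passed in no comparison.

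At its brighter probe set, Ccl6 had 4916, 4468 and 4198 units in M1 macrophages, against 8635, 9431 and 10047 units in M0 macrophages. In M2 macrophages it had 10618 and 10127 units. All M1 arrays were at about the same level, well below the others. Its log2 fold change was -1.05 (SE 0.10, limma adjusted p = 1.4e-05) in M1 over M0, -1.20 (SE 0.12, limma adjusted p = 1.03e-05) in M1 over M2 and 0.15 (95% interval -0.10 to 0.40, limma adjusted p = 0.503) in M2 over M0.

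The dimmer Ccl6 probe set showed the same order with wider gaps. It had 1040.3, 1011 and 993 units in M1 macrophages and 4418 and 4568 units in M2 macrophages, against 3251, 3269 and 3561 units in M0 macrophages. None of the conditions overlapped. On the log2 scale, the change was -1.73 (SE 0.093, limma adjusted p = 9.57e-08) in M1 over M0, -2.15 (SE 0.10, limma adjusted p = 2.47e-08) in M1 over M2 and 0.42 (SE 0.10, limma adjusted p = 0.0191) in M2 over M0. The probe sets therefore gave the same calls except for M2 over M0, where only the dimmer one passed. The dimmer one is of the s_at type, which can detect more than 1 transcript, so its values are less certainly those of Ccl6.

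At its brighter probe set, Ccl9 had 11675, 12416 and 10860.2 units in M1 macrophages and 13214 and 13959 units in M2 macrophages, against 10507, 11623 and 11582 units in M0 macrophages. M1 and M0 arrays were intermixed, and both M2 arrays were slightly above all others. The log2 fold change was 0.051 (95% interval -0.16 to 0.27, limma adjusted p = 0.806) in M1 over M0, 0.27 (95% interval 0.034 to 0.52, limma adjusted p = 0.144) in M2 over M0 and -0.22 (limma adjusted p = 0.211) in M1 over M2. With the other probe set the values were 0.082, 0.22 and -0.14 (limma adjusted p = 0.681, 0.278 and 0.499). The 95% intervals of the brighter probe set stay well within 2-fold of M0 macrophages.

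Ccl6 and Ccl9 were also the steadiest members, with a within-condition SD of log2 intensity of 0.10 and 0.084, and 27.5% and 15.0% of named genes were steadier still. The other 8 members ran from 0.21 for Ccl17 to 0.55 for Ccl7, and all 8 were above the 0.13 that was the median of named genes. Ccl6 and Ccl9 are next to each other on chromosome 11, in a row that runs Ccl5, Ccl9, Ccl6, Ccl3 and Ccl4 by protein-coding genes. Their promoter windows share a stretch that aligned over 74 columns, of which 58 (78.4%) were identical and 7 were gaps, whereas the other 9 pairs of windows aligned over at most 16 columns. The stretch is printed because only Ccl6 moved in M1 macrophages. Whether the differing bases have a part in that was not tested. On the minus strand of GRCm38.p6 it is chr11:83593073-83593146 for Ccl6, -59 to 15 from the start, and chr11:83578588-83578654 for Ccl9, -18 to 49 from the start. Capitals mark bases that differ from, or are missing in, the other gene.
Ccl6: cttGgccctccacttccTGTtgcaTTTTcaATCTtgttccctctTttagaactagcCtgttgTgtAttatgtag
Ccl9: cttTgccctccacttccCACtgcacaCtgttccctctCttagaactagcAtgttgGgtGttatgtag

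For each member, the named gene that followed it most closely over the 8 arrays was looked up among 2854 genes that ranged over at least 1 on the log2 scale. Ccl17 and Ccl24 had the same closest gene, Pdcd1lg2, the PD-1 ligand PD-L2, at a Pearson correlation of 0.998 and 0.996. Ccl22 was closest to Nckap1 (0.993), Ccl5 to Bcl3 (0.994), Ccl6 to Lgals1 (0.996) and Ccl3 to Btd (0.968). Ccl4 was closest to Cd109 (0.963), Ccl7 to Oit3 (0.960), Ccl2 to Spring1 (0.944) and Ccl9 to Abcg1 (0.940). The 8 arrays form 3 conditions, so that these correlations largely describe the condition means, and being the highest of many they are given without a test.

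Among the other CC ligands, 8 of the 11 looked up were measured. Relative to M0 macrophages, 2 rose and 1 fell in M1 macrophages, where 13.7% of all named genes rose and 11.5% fell. In M2 macrophages 1 rose and 1 fell, where 8.03% of all named genes rose and 6.43% fell. The rest did not pass. Ccl8, a monocyte and T cell attractant that acts on CCR8 in the mouse, had 439, 490.4 and 369 units in M1 and 1053 and 1429.7 units in M2 macrophages, against 155, 127 and 159 units in M0 macrophages. Its log2 fold change was 1.56 (limma adjusted p = 9.85e-06) in M1 over M0 and 3.07 (limma adjusted p = 1.85e-07) in M2 over M0, so that like Ccl22 it was highest in M2 and intermediate in M1 macrophages. Ccl12, a mouse CCR2 ligand, had 81.1, 163 and 65.4 units in M1 and 339 and 224 units in M2 macrophages, against 298, 272 and 225 units in M0 macrophages. It fell by 1.47 on the log2 scale in M1 macrophages (limma adjusted p = 0.00188), whereas Ccl2, which acts on the same receptor, rose. Ccl12 had its highest array in common with Ccl2 in M1 (replicate 2) and M2 macrophages (replicate 1). In M0 macrophages it did not (replicate 1, against replicate 2 for Ccl2).

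Of 14 receptors and decoys of the family, 13 were measured. Relative to M0 macrophages, 4 rose and 2 fell in M1 macrophages, where 13.7% of all named genes rose and 11.5% fell. In M2 macrophages 1 rose and 1 fell, where 8.03% of all named genes rose and 6.43% fell. Ccr4, the receptor of Ccl17 and Ccl22, did not exceed 23.2 units on any array. Ccr3, that of Ccl24, had 14.6, 13.4 and 23.4 units in M1 macrophages, against 48.5, 87.2 and 105.6 units in M0 macrophages (log2 fold change -2.21, limma adjusted p = 7.16e-05), and 50.5 and 39.2 units in M2 macrophages (limma adjusted p = 0.122). Ccr1, a receptor of Ccl3, Ccl5, Ccl6 and Ccl9, rose by less than 2-fold in both, with a log2 fold change of 0.51 in M1 (limma adjusted p = 0.00429) and 0.94 in M2 macrophages (limma adjusted p = 0.000234). Ccrl2, an atypical receptor that does not signal in the usual way, rose in M1 (3.07, limma adjusted p = 3.38e-07) and fell in M2 macrophages (-1.28, limma adjusted p = 0.00188). Ccr7, whose ligands are not among the members, rose in M1 macrophages (3.95, limma adjusted p = 3.09e-06). For Ccr2, the receptor of Ccl2 and Ccl7, 3 of the 4 probe sets fell in M1 macrophages, with log2 fold changes of -1.66 (limma adjusted p = 0.000242), -1.57 (limma adjusted p = 0.0023) and -0.93 (limma adjusted p = 0.00069). The brightest, which stands for Ccr2 in the count above, did not pass (-0.16, limma adjusted p = 0.335), and none of the 4 passed in M2 over M0.

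Of 13 regulators of CC chemokine expression looked up, 11 were measured. Relative to M0 macrophages, 5 rose and 2 fell in M1 macrophages, where 13.7% of all named genes rose and 11.5% fell. In M2 macrophages 3 rose and 1 fell, where 8.03% of all named genes rose and 6.43% fell. Irf4, a factor of the IL-4 response, had 301 and 372 units in M2 macrophages, against 22.6, 25.6 and 25.8 units in M0 macrophages (log2 fold change 3.76, limma adjusted p = 8.12e-09), and in M1 macrophages it had 27.6, 27.6 and 22.6 units. Its M2 arrays thus stood apart as those of Ccl17 and Ccl24 did. Of the NF-kappaB family, Nfkb2 rose in M1 macrophages (2.29, limma adjusted p = 4.3e-06), and Rel had a log2 fold change of 0.94 in M1 (limma adjusted p = 0.000193) and 1.81 in M2 macrophages (limma adjusted p = 4.72e-06). Kdm6b, a histone demethylase, rose by 1.30 in M1 (limma adjusted p = 3.51e-05) and 0.81 in M2 macrophages (limma adjusted p = 0.00558), on the log2 scale. Stat6, which carries the IL-4 signal, did not pass the test in either (-0.10 in each, limma adjusted p = 0.532 in M1 and 0.632 in M2 macrophages).

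**Figure D4:**
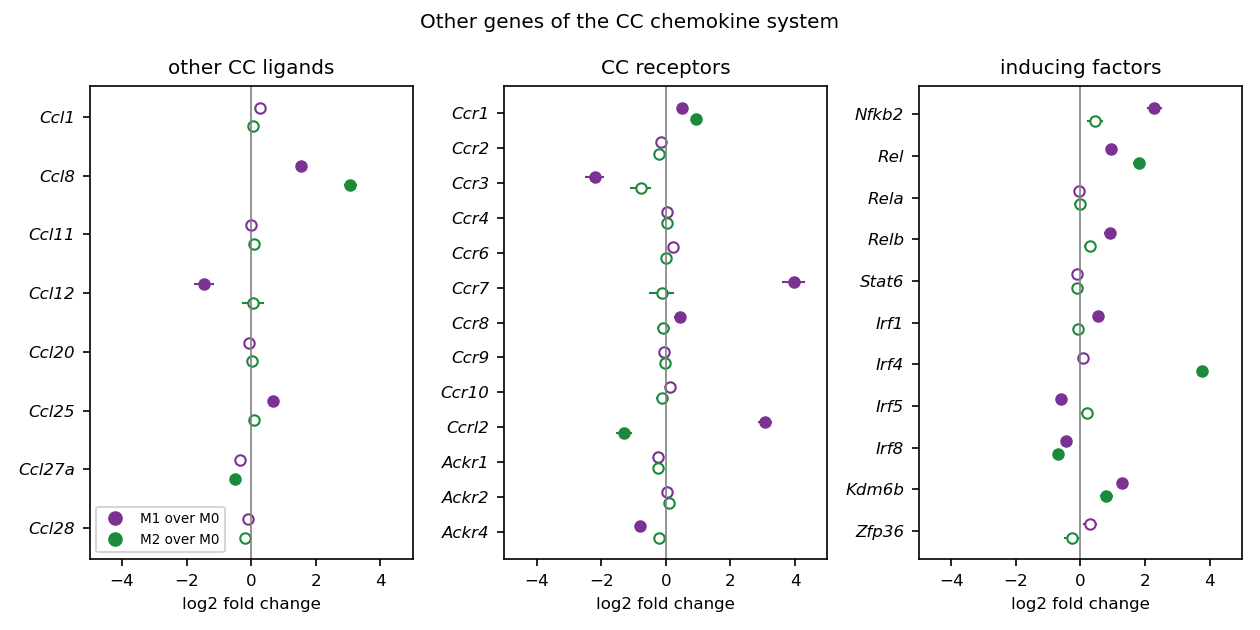
Log2 fold change over M0 macrophages of other CC ligands, CC receptors and regulators of CC chemokine expression (panel titled inducing factors). M1 over M0 is in purple and M2 over M0 in green. Lines are standard errors from limma, and filled points passed the test after adjustment. Ccl8 and Irf4 have the highest M2 values of their panels, at 3.07 and 3.76, and Ccr7 and Ccrl2 the highest M1 values among receptors, at 3.95 and 3.07.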

How the data were processed

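Total RNA of 8 macrophage cultures was hybridized to Affymetrix mouse expression arrays (3 M1, 2 M2 and 3 M0). The authors applied RMA through GenePattern's Expression File Creator, and deposited linear intensity values of 45101 probe sets. No version is given in the sources used here. Log2 of each intensity was taken, 64 control probe sets were left out and 45037 were tested with lmFit and eBayes of limma 3.58.1 (R 4.3.3), with all 8 arrays and 3 condition means in the model (5 residual degrees of freedom, prior 6.95). P-values were adjusted over all 45037 probe sets, with a threshold of 0.05. Background shares cover the 18193 genes that 34945 probe sets name alone. Another 932 probe sets have several symbols and 9160 are not listed in the annotation table used. All members are named with every probe set, other genes where they passed with a change of at least 2-fold or where a sentence turns on them. The members, lists and rules were chosen with earlier results of these data known. Lists got no set test, and the motif search and alignment are descriptions. The scripts were tested on simulated data holding 200 changed probe sets. Python 3.11.15 with matplotlib 3.10.9 drew the figures.

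The array labels carry replicate numbers, but no source says that arrays of the same number in different conditions share a mouse, so the fit has no block. The settings varied were the test (the methods' t-test on linear or log2 values, limma on 2 conditions at a time, limma with robust variances and an intensity trend, a replicate block), the scale (median centring, quantile normalization once more, a floor of 64 units), other thresholds, other probe sets of a gene and each array left out. Precision is limited by the number of arrays.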

Additional observations from a re-analysis of the deposited data

How the results depend on the processing

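Under 21 alternatives, no call turned its direction (Ccl17 in M1 over M0 was at exactly 0 when values under 64 units were set to 64), and 4 kept their side of the threshold in every alternative (Ccl22 in M2 over M0, Ccl5 in M1 over M0, and Ccl6 in M1 over M0 and in M1 over M2). Of the values not called, Ccl7 in M1 over M0 ran between -0.020 (without M1 replicate 2) and 0.68 (without M1 replicate 3) when single arrays were left out. Over all 30 member comparisons, 556 of 630 values stayed on their side of the threshold, 64 lost it, 9 gained it and 1 changed sign. Scalings moved the median of all genes by at most 0.036 on the log2 scale.

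The methods' t-test on log2 values, with Benjamini-Hochberg adjustment, called 4 members higher and 1 lower in M1 than in M0 macrophages. It lost Ccl2 (t-test adjusted p = 0.109) and Ccl4 (t-test adjusted p = 0.181) there and gained Ccl24 (t-test adjusted p = 0.00814). In M2 over M0 it called 1 higher (Ccl22) and 0 lower. Ccl17 (t-test adjusted p = 0.0501) and Ccl24 (t-test adjusted p = 0.0754) were among those lost. In M1 over M2 it called 0 higher and 2 lower. On linear values 3 were higher and 1 lower in M1 than in M0, and 1 higher and 0 lower in M2 than in M0. Directly compared, 1 was higher and 2 lower in M1 than in M2. With values under 64 units set to 64, 2 members were higher and 1 lower in M1 than in M0, 3 higher and 0 lower in M2 than in M0, and 1 higher in M1 than in M2 macrophages. The number lower in M2 than in M0 was 1 with a replicate block (Ccl5), 0 at an adjusted p under 0.01 and 0 with a 2-fold limit, and the 2-fold limit left 1 lower in M1 than in M0. Leaving out each array gave 0 to 2 members lower in M2 than in M0 (0 without M0 replicate 2, 1 without M0 replicate 1, M0 replicate 3 or either M2 replicate) and 3 to 5 higher (3 without M2 replicate 1). Causes of these shifts were not tested.

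The numbers of the arrays were not taken as a pairing, because no source gives them as one. Deviations of arrays with the same number correlated at -0.172 to 0.0547 (7 pairs), against -0.150 to 0.190 for other arrays (14 pairs). With the replicate block, 2 calls were lost, both in M2 over M0, those of Ccl2 (0.84, limma adjusted p = 0.0809) and Ccl3 (-0.58, limma adjusted p = 0.0945).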
